A study of Mus musculus with 6 samples.

Results

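The genes described here encode the enzymes and transporters of glycolysis, gluconeogenesis and glycogen turnover, and their mRNA was measured by RNA-Seq in the liver of laboratory and wild house mice (Mus musculus). A fixed list of 38 gene symbols defined the set, and its members were looked up by name among 47232 gene names that were listed once for every mouse without a marked failed estimate. For 35 members a single entry was found in each mouse, and all 35 passed the filter on low values. The other members, Hk2, Eno1 and Eno3, were listed at 2 places in 5 of the mice and were left out of the test. The rule uses no measured value, but the list was drawn up with earlier results of these data known, so the counts below describe the list and are no independent test of it.

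The study compared 3 laboratory mice with 3 wild mice. The laboratory mice were adult inbred C57BL6 males obtained from a supplier and killed on arrival. The wild mice were adult and outbred, were live-trapped at 2 locations in New South Wales, and were then housed for some months at ambient temperature and natural day length. Wild mouse 1 was male and wild mice 2 and 3 were female. Strain, origin, housing and, in part, sex therefore changed together and cannot be told apart. The laboratory mice were also heavier, and their carcasses had been archived for longer when fixed tissue was sampled. These differences cannot be told apart from the others either. Feeding state and time of day at death are not given in the sources used here. The liver samples used for RNA were taken and frozen before the carcasses were fixed in formalin. No allele or treatment is named for any mouse, and each animal was measured once.

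Liver takes up glucose through the transporter GLUT2 and can burn it by glycolysis, store it as glycogen or make glucose anew from lactate, glycerol and amino acids by gluconeogenesis. Most glycolytic steps are reversible and are shared by both directions, whereas a few are irreversible and are bypassed by the gluconeogenic enzymes pyruvate carboxylase, phosphoenolpyruvate carboxykinase, fructose-1,6-bisphosphatase and glucose-6-phosphatase. Hepatocytes use liver forms of many of these enzymes, among them PFKL, L-type pyruvate kinase (Pklr), GYS2 and PYGL, while other tissues use the muscle, brain or ubiquitous forms.

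Levels are given in FPKM and in zFPKM. FPKM are fragments assigned to a gene, corrected for transcript length and for the size of the library, a level per length that can be compared between genes. The authors' zFPKM takes the log2 FPKM of a gene, subtracts the mode found for that liver and scales the rest by a fitted SD. It thus gives the level relative to the other genes of the same liver. The mode (log2 FPKM) was 0.491, 0.794 and 2.12 for laboratory mice 1 to 3 versus 2.51, 1.31 and 1.77 across the wild group. The fitted SD ranged from 2.51 to 3.12. Differences below are wild minus laboratory in mean zFPKM with the standard error (SE) from limma over 18619 tested genes. This SE followed the mean level of a gene, and the gene's own spread between mice had little part in it. A gene was called at a Benjamini-Hochberg adjusted p under 0.05. The choice of unit bears on every comparison, since on the log2(FPKM + 0.1) scale the median tested gene was itself 0.47 higher in wild mice, whereas in zFPKM it was -0.005. Each library's absolute depth is unknown because no read counts were used.

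Of the 35 members tested, 9 were called higher in wild mice (25.7%, against 7.28% of all tested genes), 1 was called lower (2.86%, against 7.17%) and 25 were not called. The 9 were the glycolytic enzymes Tpi1, Pgk1 and Pgam1, the lactate dehydrogenase subunit Ldha, the gluconeogenic enzymes Fbp1 and Pcx, the glycogen enzymes Gbe1 and Pygl, and the pyruvate dehydrogenase kinase Pdk1. The member called lower was Gapdh. The SE fell as the level rose, so abundant genes were called more readily, and the shares were not matched for level. The median difference over the 35 members was 0.17 in zFPKM, against -0.005 over all tested genes, and 23 members had a positive difference. On the log2(FPKM + 0.1) scale, the median was 1.24 for the members and 0.47 for all genes, 26 members lay above the median gene, and 22 members were called higher and 2 lower (Pck2 and G6pc3), against 37.9% and 8.19% of all tested genes.

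The groups did not overlap in either unit for 11 members with all wild mice higher, namely the 9 above together with Pfkm and Pdk4, and for 1 member with all wild mice lower, G6pc3. Over all tested genes, the groups were separated in this way in 13.9% with wild mice higher and in 9.23% with wild mice lower. Neither Pfkm, Pdk4 nor G6pc3 passed the test.

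**Figure D1:**
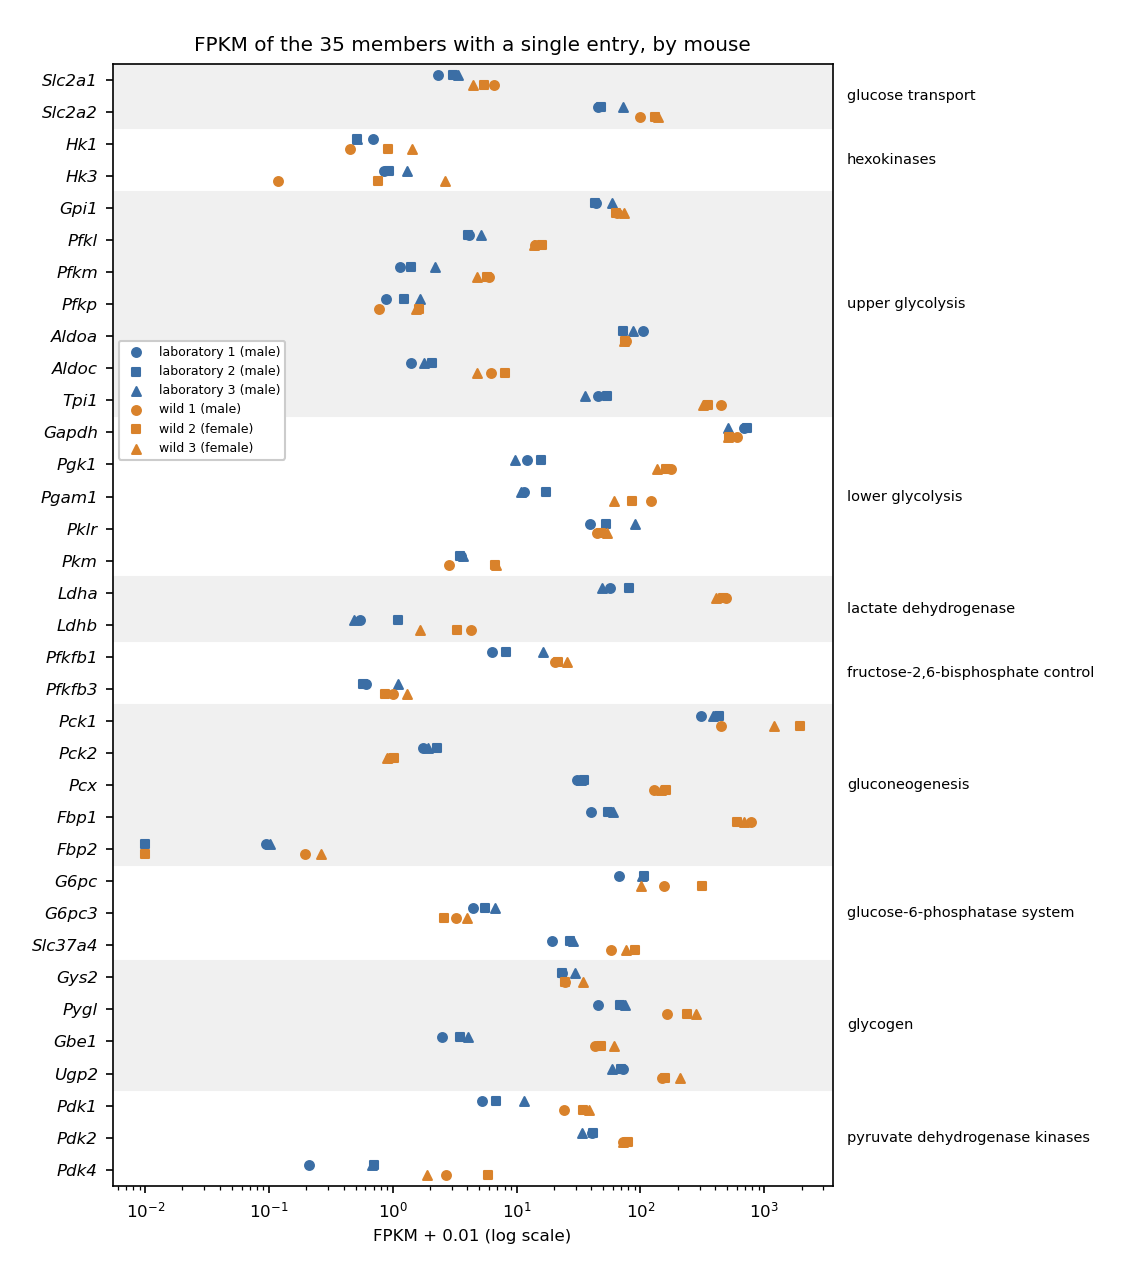
FPKM (x axis, log scale after adding 0.01) of the 35 members with a single entry (y axis, grouped by role), with 1 symbol per mouse, laboratory mice in blue and wild mice in orange. Fbp1, Pgk1, Tpi1, Ldha and Gbe1 show the widest gaps between the colours, while Gapdh, Aldoa, Pklr and Gys2 overlap.

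The stretches of DNA before the start of 5 of the called members with the largest differences are given here because these members were higher in all wild mice, so that their upstream sequences can be set side by side. They come from RefSeq's GRCm38.p6 table, in which a promoter was found for 37 of the 38 members (Gys2 was the exception), and each is written 5′ to 3′ on the gene's own strand, without any base inside the gene as the files place it. Capitals mark the CCAAT letters on either strand. The positions are chr16:70313699-70313948 (plus strand) for Gbe1, chr13:62888299-62888532 (minus strand) for Fbp1, chrX:106186850-106187099 (plus strand) for Pgk1, chr6:124814297-124814408 (minus strand) for Tpi1 and chr19:41911621-41911870 (plus strand) for Pgam1.
Gbe1: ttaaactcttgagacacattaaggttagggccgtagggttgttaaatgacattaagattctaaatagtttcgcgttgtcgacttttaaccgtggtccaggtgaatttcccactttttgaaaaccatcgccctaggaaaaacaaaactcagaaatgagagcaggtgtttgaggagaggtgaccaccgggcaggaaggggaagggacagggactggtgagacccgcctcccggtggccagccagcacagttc
Fbp1: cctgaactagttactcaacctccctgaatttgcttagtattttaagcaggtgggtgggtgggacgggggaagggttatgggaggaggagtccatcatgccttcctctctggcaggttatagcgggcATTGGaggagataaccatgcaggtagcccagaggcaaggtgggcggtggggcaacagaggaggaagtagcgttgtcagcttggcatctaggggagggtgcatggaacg
Pgk1: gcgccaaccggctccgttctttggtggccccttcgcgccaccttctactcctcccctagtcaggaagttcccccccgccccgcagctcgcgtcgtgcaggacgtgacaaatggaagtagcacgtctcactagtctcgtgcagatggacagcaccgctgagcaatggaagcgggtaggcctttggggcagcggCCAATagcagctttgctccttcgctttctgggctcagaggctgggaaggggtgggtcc
Tpi1: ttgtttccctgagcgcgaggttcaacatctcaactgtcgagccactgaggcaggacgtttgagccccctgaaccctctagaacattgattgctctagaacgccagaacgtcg
Pgam1: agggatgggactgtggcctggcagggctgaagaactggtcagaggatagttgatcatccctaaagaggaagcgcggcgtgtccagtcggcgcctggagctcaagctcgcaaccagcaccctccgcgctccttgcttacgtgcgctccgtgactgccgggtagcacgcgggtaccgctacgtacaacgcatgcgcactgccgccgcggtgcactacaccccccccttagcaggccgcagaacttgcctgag

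Of the 5 stretches, those of Fbp1 and Pgk1 held CCAAT, and those of Gbe1, Tpi1 and Pgam1 held none of the motifs searched. The Tpi1 stretch is short because 138 bases were left out, and the position of Tpi1 did not match that of RefSeq. The bases just after the Pgam1 stretch were not found in the Pgam1 transcripts searched. Ldha is not shown because the whole window lay inside the gene as the files place it. In the full window of 250 bases before each start in the table, searched on both strands, CCAAT was found for Fbp1, Pgk1 and Pcx of the 9 members called higher. It stood in 33.8% of all 32851 promoters and in 35.6% of the 59 promoters of the members. The TATA box TATAAA was found for G6pc, Pfkfb1, Pklr and Slc37a4 and for none of the 9, and it stood in 12.4% of all promoters. The E-box CACGTG was found for Ldha and Pcx of the 9 (6.02% of all promoters), and the cAMP response element TGACGTCA for Ldha (1.55% of all promoters). The forkhead letters TGTTTAC were found for the member Aldoc alone (3.17% of all promoters), and a palindromic glucocorticoid response element and HNF1 site were found for no member and in 0.00913% of all promoters each. The CCAAT letters do not overlap those of the other motifs in the sequences printed, and a match or its absence describes only these letters in this window.

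Gluconeogenesis held the member with the smallest adjusted p of the set. Fbp1, the liver form of fructose-1,6-bisphosphatase, which removes a phosphate from fructose-1,6-bisphosphate (chr13:62864753-62888298), had 39.8, 55.0 and 60.5 FPKM across the laboratory group versus 782, 605 and 682 across the wild group. The lowest wild mouse was far above the highest laboratory mouse, and the mean FPKM was 13.3 times as high in wild mice. In zFPKM the difference was 1.04 (SE 0.11, adjusted p = 5.0e-18, limma). It was called higher in every alternative except the fit on the males alone (adjusted p = 0.17), which called no gene.

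Pcx, pyruvate carboxylase, which makes oxaloacetate from pyruvate in mitochondria, had 30.8, 34.8 and 33.2 FPKM across the laboratory group versus 130, 159 and 147 across the wild group. Both groups were tight and did not overlap, with a zFPKM difference of 0.49 (SE 0.13, adjusted p = 0.0025). Its call was lost in 6 of 18 alternatives, over all of which its adjusted p ranged from 6.9e-05 to 0.45. The adjusted p was 0.064 without wild mouse 2 and 0.063 without wild mouse 3. With sex as a covariate the difference was 0.34 and the call was lost. As all laboratory mice were male, this difference is that of wild mouse 1 alone from the laboratory mice.

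Pck1, the cytosolic phosphoenolpyruvate carboxykinase that turns oxaloacetate into phosphoenolpyruvate, was the most abundant gluconeogenic member and was not called. Its FPKM was 307, 435 and 382 across the laboratory group versus 451, 1936 and 1199 across the wild group. The 2 wild females stood apart from the other 4 mice. In FPKM the wild male lay just above the highest laboratory mouse, at 0.287 times the mean of the wild females. In zFPKM the wild male was at 2.34, below every laboratory mouse (2.50 to 2.61). The zFPKM difference was 0.22 (SE 0.10, adjusted p = 0.12), and with sex as a covariate it was -0.22. Laboratory females were not measured, so sex and the spread among wild mice cannot be told apart here.

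Pck2, the mitochondrial form, was at 1.74 to 2.24 in laboratory and 0.893 to 1.01 FPKM in wild mice, the opposite order to Pck1 (zFPKM difference -0.60, SE 0.31, adjusted p = 0.19). Pck1 made up at least 99.4% of the summed FPKM of Pck1 and Pck2 in every mouse. Fbp2, the muscle form of fructose-1,6-bisphosphatase, was barely detected, between a listed 0 and 0.251 FPKM, and the lowest share of Fbp1 in the summed FPKM of the pair was 99.8%, in laboratory mouse 1.

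The glucose-6-phosphatase system, which frees glucose in the endoplasmic reticulum as the last step of gluconeogenesis and of glycogen breakdown, held no called member. G6pc, its catalytic subunit in liver and kidney, had 67.1, 106 and 104 FPKM across the laboratory group versus 155, 313 and 100 across the wild group. Wild mouse 3 lay inside the laboratory range and wild mouse 2 stood above all others (zFPKM difference 0.04, SE 0.12, adjusted p = 0.87). Slc37a4, the glucose-6-phosphate translocase that feeds it, ranged from 19.3 to 28.4 FPKM in laboratory and from 57.9 to 90.2 FPKM in wild mice (zFPKM difference 0.29, SE 0.14, adjusted p = 0.17).

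G6pc3, the ubiquitous catalytic subunit, was the one member whose wild mice were all lower in both units. Its FPKM was 4.47, 5.56 and 6.65 across the laboratory group versus 3.21, 2.58 and 3.98 across the wild group. The gap between the groups was narrow (zFPKM difference -0.51, SE 0.23, adjusted p = 0.11). G6pc supplied 93.8% to 95.01% of the summed FPKM of both subunits among laboratory mice versus 96.2% to 99.2% among wild mice, a share whose groups did not overlap, with the smallest two-sided exact permutation p that 3 mice against 3 allow (p = 0.1).

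Of the 12 glycolytic members tested from Gpi1 to Pkm, 3 were called higher in wild mice, 1 was called lower and 8 were not called, where 7.28% of all tested genes were called higher and 7.17% lower. Tpi1, triose-phosphate isomerase, which interconverts both triose products of aldolase (chr6:124810592-124814296), had 45.2, 54.0 and 35.7 FPKM across the laboratory group versus 448, 354 and 320 across the wild group. Pgk1, phosphoglycerate kinase, which forms ATP in the next but one step (chrX:106187100-106203699), had 12.2, 15.8 and 9.68 FPKM across the laboratory group versus 177, 161 and 136 across the wild group. Pgam1, phosphoglycerate mutase, had 11.4, 17.2 and 10.8 FPKM across the laboratory group versus 123, 85.0 and 60.9 across the wild group. In all 3 the wild mice were several times above the highest laboratory mouse in FPKM, and the wild male had the highest FPKM of all mice. The zFPKM differences were 0.82 for Tpi1 (SE 0.12, adjusted p = 4.5e-10), 1.04 for Pgk1 (SE 0.14, adjusted p = 1.3e-11) and 0.71 for Pgam1 (SE 0.15, adjusted p = 3.2e-05, limma). The calls were lost in 2 of 18 alternatives for Pgk1 and in 3 for Tpi1 and Pgam1, none of which left out a single mouse.

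Gapdh, glyceraldehyde-3-phosphate dehydrogenase, catalyses the step between those of Tpi1 and Pgk1 and was the most abundant member of glycolysis. Its FPKM was 686, 724 and 507 across the laboratory group versus 597, 521 and 509 across the wild group. The groups overlapped in FPKM, since laboratory mouse 3 was the lowest of all mice, and the call came from zFPKM (difference -0.33, SE 0.10, adjusted p = 0.0089). This call was lost in 11 of 18 alternatives, including without laboratory mouse 1 (adjusted p = 0.090), laboratory mouse 2 (0.064) or wild mouse 2 (0.071), and with sex as a covariate (0.11). Within each mouse, the ratio of Tpi1 to Gapdh FPKM, which does not depend on the scaling between mice, was 0.0659 to 0.0746 in laboratory and 0.628 to 0.750 in wild mice. The ratio of Pgk1 to Gapdh was 0.0177 to 0.0218 in laboratory and 0.267 to 0.310 in wild mice. Each ratio had groups that did not overlap, with p = 0.1 in the exact permutation test, the smallest possible.

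Ldha, the lactate dehydrogenase subunit that predominates in liver and muscle, was the remaining glycolytic member called higher. Its FPKM was 57.04, 80.7 and 48.8 across the laboratory group versus 486, 464 and 406 across the wild group. The wild mice were close to each other and the mean was 7.28 times that of the laboratory mice (zFPKM difference 0.76, SE 0.11, adjusted p = 3.2e-09), a call lost in 3 of 18 alternatives. Ldhb, the heart-type subunit, ranged from 0.473 to 1.09 FPKM in laboratory and from 1.66 to 4.31 FPKM in wild mice (zFPKM difference 0.52, SE 0.31, adjusted p = 0.28), and Ldha was 98.7% to 99.6% of both subunits' summed FPKM in all mice.

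The glycolytic members before Tpi1 were not called. Gpi1, glucose-6-phosphate isomerase, ranged from 42.8 to 59.2 FPKM in laboratory and from 64.0 to 73.3 FPKM in wild mice. Pfkl, the liver phosphofructokinase, ranged from 4.05 to 5.14 FPKM in laboratory and from 13.7 to 16.0 FPKM in wild mice. Pfkm, the muscle phosphofructokinase, had 1.13, 1.40 and 2.20 FPKM across the laboratory group versus 5.93, 5.72 and 4.74 across the wild group. Its groups were apart in both units, but the zFPKM difference of 0.39 had an SE of 0.25 (adjusted p = 0.34). Pfkp, the platelet form, overlapped between the groups, from 0.770 to 1.65 FPKM over all mice. Pfkl was the main form in every mouse, with 57.2% to 67.2% of the summed FPKM of the 3 forms in laboratory and 67.7% to 68.7% in wild mice.

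Aldoa, the muscle-type and ubiquitous aldolase, ranged from 71.9 to 104 FPKM in laboratory and from 73.6 to 76.7 FPKM in wild mice, and was not called (zFPKM difference -0.32, SE 0.13, adjusted p = 0.064). Aldoc, the brain-type aldolase, ranged from 1.38 to 2.05 FPKM in laboratory and from 4.80 to 8.03 FPKM in wild mice (zFPKM difference 0.40, SE 0.24, adjusted p = 0.30).

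At the end of glycolysis, Pklr, the liver pyruvate kinase, ranged from 39.4 to 90.04 FPKM in laboratory and from 44.9 to 53.8 FPKM in wild mice and narrowly missed the call (zFPKM difference -0.35, SE 0.13, adjusted p = 0.059). Pkm, the other pyruvate kinase gene, ranged from 2.84 to 6.79 FPKM over all mice, with the wild male lowest and the wild females highest (zFPKM difference -0.08, SE 0.23, adjusted p = 0.88). Pklr held 87.9% to 96.1% of the summed FPKM of both genes.

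Eno1, enolase 1, was listed both on its chromosome (chr4:150236692-150248873) and on an alternate sequence, and only the second entry was present in all 6 mice. At that entry its FPKM was 32.7, 38.1 and 34.4 across the laboratory group versus 196, 120 and 134 across the wild group, so that no wild mouse came near the laboratory range. At the chromosome entry its FPKM was 45.8 and 39.0 for laboratory mice 2 and 3, versus 132, 103 and 96.9 across the wild group. How the reads were divided between the entries is unknown, so the zFPKM difference of 0.47 (adjusted p = 0.0034) in a fit at the alternate sequence, chosen after seeing the data, and of 0.42 (adjusted p = 0.011) in a fit on each mouse's entry with the highest FPKM rest on values that may be split. Eno3, the muscle enolase, had a lower mean in wild mice at both entries, where the groups overlapped, with 0.941 to 4.79 FPKM in laboratory and 0.637 to 1.07 FPKM in wild mice at the alternate sequence and adjusted p of 0.14 and 0.31 in the same fits. Hk2, the insulin-responsive hexokinase of muscle and fat, was at most 0.268 FPKM at either entry in any mouse.

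**Figure D2:**
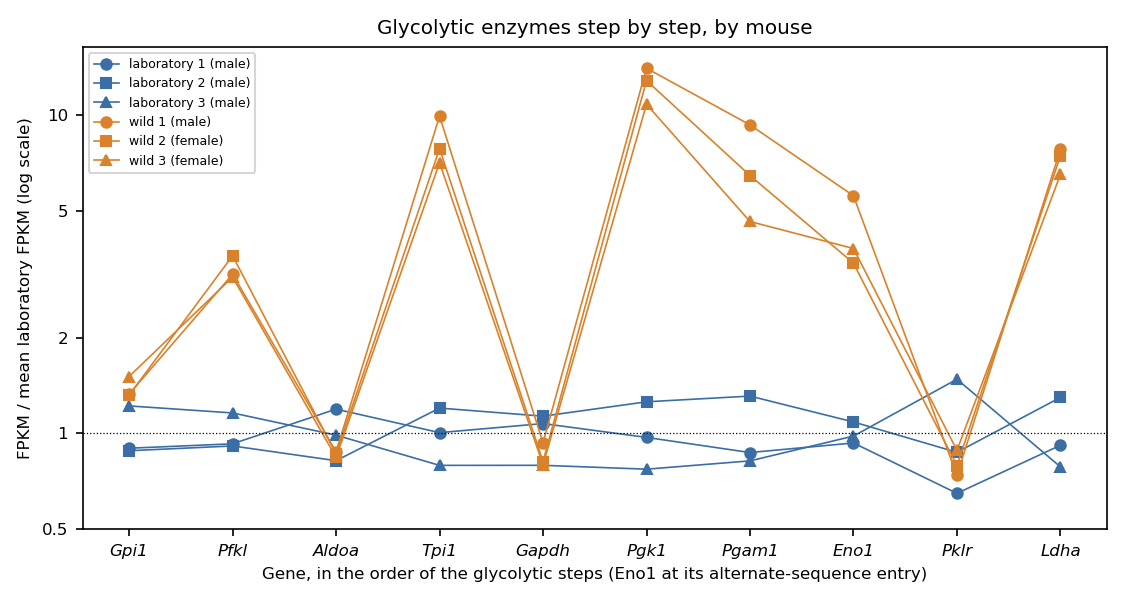
FPKM of 10 glycolytic genes in the order of their steps (x axis), each divided by the mean of the laboratory mice (y axis, log scale), with 1 line per mouse. The wild mice (orange) lie together, near the laboratory mice (blue) at Aldoa, Gapdh and Pklr and narrowly above them at Gpi1. They lie clearly above the laboratory mice at Pfkl and several times above them at Tpi1, Pgk1, Pgam1, Eno1 and Ldha.

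Glucose entry showed no called member. Slc2a2, the GLUT2 transporter of hepatocytes, had 45.3, 47.8 and 72.2 FPKM across the laboratory group versus 98.6, 132 and 138 across the wild group (zFPKM difference 0.14, SE 0.13, adjusted p = 0.54). All wild mice were higher in FPKM, but in zFPKM the groups overlapped. Slc2a1, the GLUT1 transporter of most other cells, ranged from 2.32 to 3.34 FPKM in laboratory and from 4.45 to 6.51 FPKM in wild mice, and Slc2a2 held 93.8% to 96.9% of the summed FPKM of both transporters.

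Hk3, which is found mainly in myeloid cells and had the highest mean FPKM of the hexokinase members, was above Hk1 in all laboratory mice and in wild mouse 3 but below it in wild mice 1 and 2. It had 0.831, 0.925 and 1.29 FPKM across the laboratory group versus 0.107, 0.743 and 2.61 across the wild group. The wild mice spread on both sides of the laboratory mice, with wild mouse 1 lowest and wild mouse 3 highest (zFPKM difference -0.53, SE 0.35, adjusted p = 0.37). With sex as a covariate the difference was -1.72. That fit sets wild mouse 1 alone against the laboratory mice, since no laboratory mouse was female. The 6 Kupffer cell markers were likewise lowest in wild mouse 1 and highest in wild mouse 3, with a summed FPKM of 28.0 to 36.0 across the laboratory group versus 11.5, 42.1 and 110 for wild mice 1 to 3, and their part in the Hk3 values was not tested. Hk1, the ubiquitous hexokinase, ranged from 0.445 to 1.42 FPKM over all mice and was also lowest in wild mouse 1 and highest in wild mouse 3.

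The level of fructose-2,6-bisphosphate, which stimulates phosphofructokinase and inhibits fructose-1,6-bisphosphatase, is set by bifunctional enzymes. Pfkfb1, the liver form, had 6.27, 8.24 and 16.3 FPKM across the laboratory group versus 20.6, 21.5 and 25.6 across the wild group, with laboratory mouse 3 closest to the wild mice (zFPKM difference 0.17, SE 0.17, adjusted p = 0.60). Pfkfb3, a form found in many tissues, ranged from 0.560 to 1.29 FPKM over all mice (zFPKM difference -0.06, SE 0.34, adjusted p = 0.94).

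Among glycogen genes, the enzyme that makes branches differed most. Gbe1, the glycogen branching enzyme (chr16:70313949-70569720), had 2.48, 3.49 and 4.03 FPKM across the laboratory group versus 43.0, 47.7 and 61.7 across the wild group. This was the largest zFPKM difference of all 35 members, at 1.12 (SE 0.17, adjusted p = 1.4e-08), and the mean FPKM was 15.2 times as high in wild mice. Its call was lost in 2 of 18 alternatives, the fit with no filter on low values and that on males alone. Gys2, the liver glycogen synthase that lengthens the chains, ranged from 23.3 to 29.3 FPKM in laboratory and from 24.5 to 34.3 FPKM in wild mice and was not called (zFPKM difference -0.21, SE 0.15, adjusted p = 0.41). The ratio of Gbe1 to Gys2 within a mouse was 0.107 to 0.150 in laboratory and 1.75 to 1.93 in wild mice.

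Pygl, the liver glycogen phosphorylase that releases glucose-1-phosphate, had 45.8, 68.9 and 75.0 FPKM across the laboratory group versus 165, 238 and 281 across the wild group. The groups were apart in both units (zFPKM difference 0.37, SE 0.12, adjusted p = 0.017), but the call was lost in 9 of 18 alternatives. Among them were the fits without laboratory mouse 1 (adjusted p = 0.11), wild mouse 2 (0.15) and wild mouse 3 (0.28). With sex as a covariate the difference was 0.14 and the call was lost (adjusted p = 0.59). Ugp2, which makes the UDP-glucose that glycogen synthase uses, ranged from 58.9 to 73.0 FPKM in laboratory and from 150 to 209 FPKM in wild mice (zFPKM difference 0.22, SE 0.12, adjusted p = 0.25).

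The pyruvate dehydrogenase kinases, which switch off the entry of pyruvate into the citric acid cycle, differed among themselves. Pdk2, the most abundant kinase, had 40.5, 41.2 and 33.5 FPKM across the laboratory group versus 72.2, 80.1 and 72.6 across the wild group, higher in all wild mice in FPKM but not in zFPKM (difference 0.09, SE 0.13, adjusted p = 0.75). Pdk1 had 5.25, 6.78 and 11.4 FPKM across the laboratory group versus 24.02, 34.2 and 38.6 across the wild group, and was called (difference 0.46, SE 0.17, adjusted p = 0.044), a call lost in 10 of 18 alternatives. It was lost without laboratory mouse 1, 2 or 3 (adjusted p of 0.13, 0.12 and 0.062) and without wild mouse 2 or 3 (0.29 and 0.35). With sex as a covariate the difference was 0.17 (adjusted p = 0.63), and both wild females were above the wild male. Pdk4, the form known to be induced by fasting, had 0.202, 0.693 and 0.674 FPKM across the laboratory group versus 2.69, 5.85 and 1.87 across the wild group.

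Pdk4 was at a low level in every mouse, and genes at such a level had a large SE in this fit (difference 0.70, SE 0.32, adjusted p = 0.13). The share of Pdk2 in the summed FPKM of the 3 kinases was 73.5% to 88.1% in laboratory and 64.2% to 73.0% in wild mice, without overlap (exact permutation p = 0.1, the smallest possible).

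**Figure D3:**
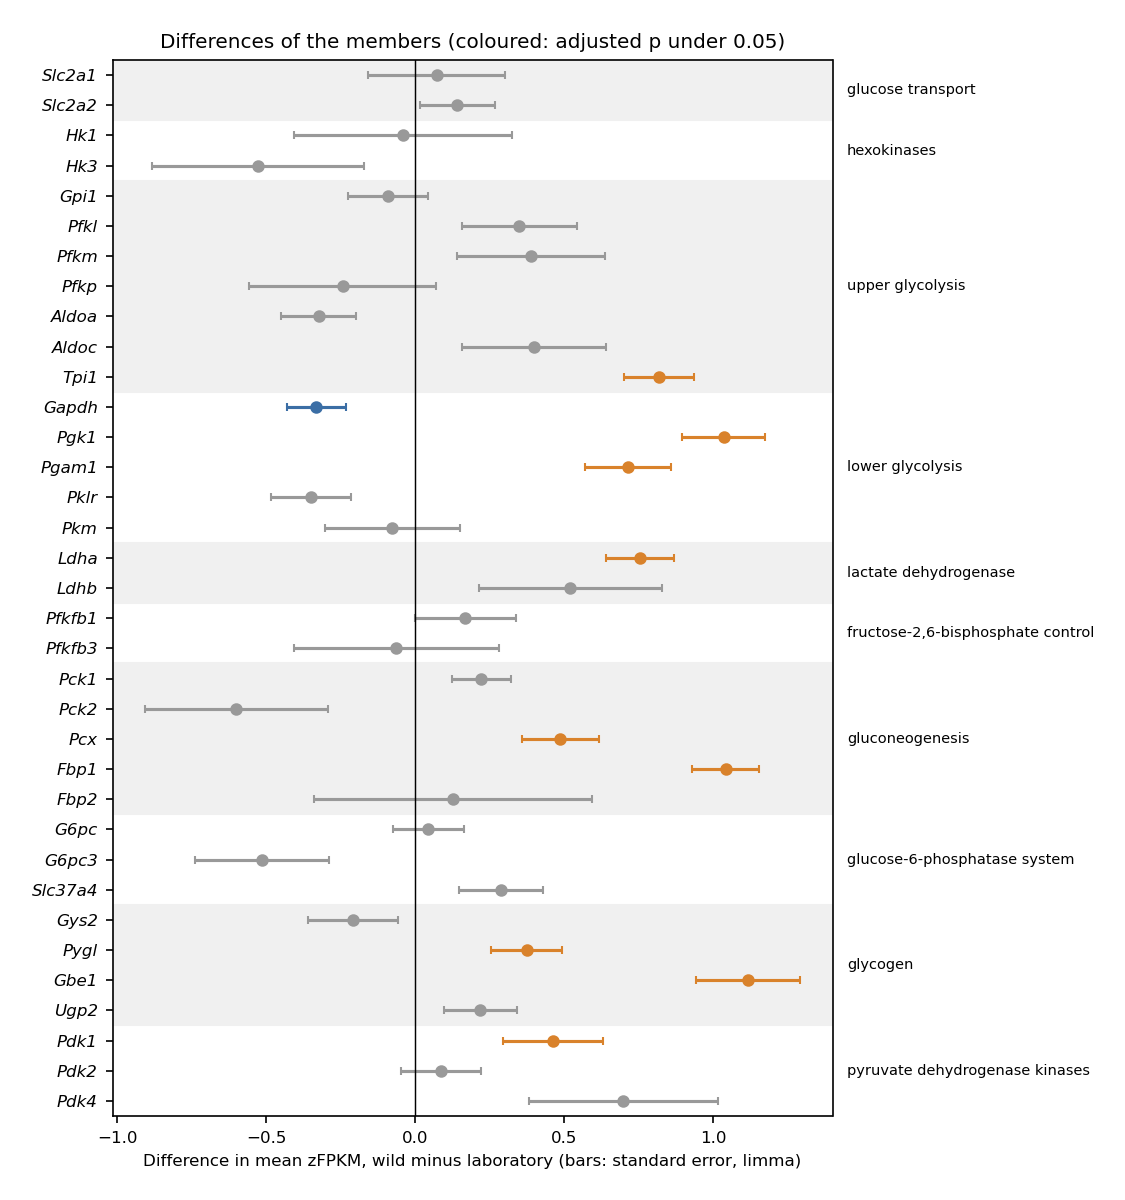
Difference in mean zFPKM, wild minus laboratory (x axis), with the standard error from limma as bars, for the 35 members (y axis, grouped by role). Orange marks the 9 members called higher in wild mice, blue the 1 called lower (Gapdh) and grey the 25 not called.

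Ratios of opposing enzymes within a mouse compare gene pairs without any scaling between mice. Fbp1 to Pfkl, the enzymes that remove and add a phosphate at the same position of fructose, was 9.68 to 13.6 in laboratory and 37.7 to 55.7 in wild mice, with groups apart. Pck1 to Pklr was 4.25 to 8.21 in laboratory and 10.0 to 40.2 in wild mice, also apart, and Pcx to Pklr was 0.369 to 0.783 and 2.73 to 3.31. Pygl to Gys2 was 1.97 to 2.96 in laboratory and 6.72 to 9.62 in wild mice. These pairs had an exact permutation p of 0.1, the smallest that 3 mice against 3 can reach.

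Aldoa to Gapdh was 0.0992 to 0.170 in laboratory and 0.128 to 0.145 in wild mice, so the groups overlapped (exact permutation p = 1). Pklr to Gapdh (exact permutation p = 1) and Pdk1 to Pdk2 (exact permutation p = 0.2) overlapped as well. In all, 17 ratios were computed, of which 14 were higher in every wild mouse and 3 overlapped. No adjustment over them was made because none can pass a threshold of 0.05 in this design. The pairs were picked, and many set a called member over one that differed little, so the count largely repeats the member differences. No share over gene pairs in general was computed. Slc37a4 to G6pc was apart only narrowly, at 0.2881 in laboratory mouse 1 and 0.2883 in wild mouse 2.

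**Figure D4:**
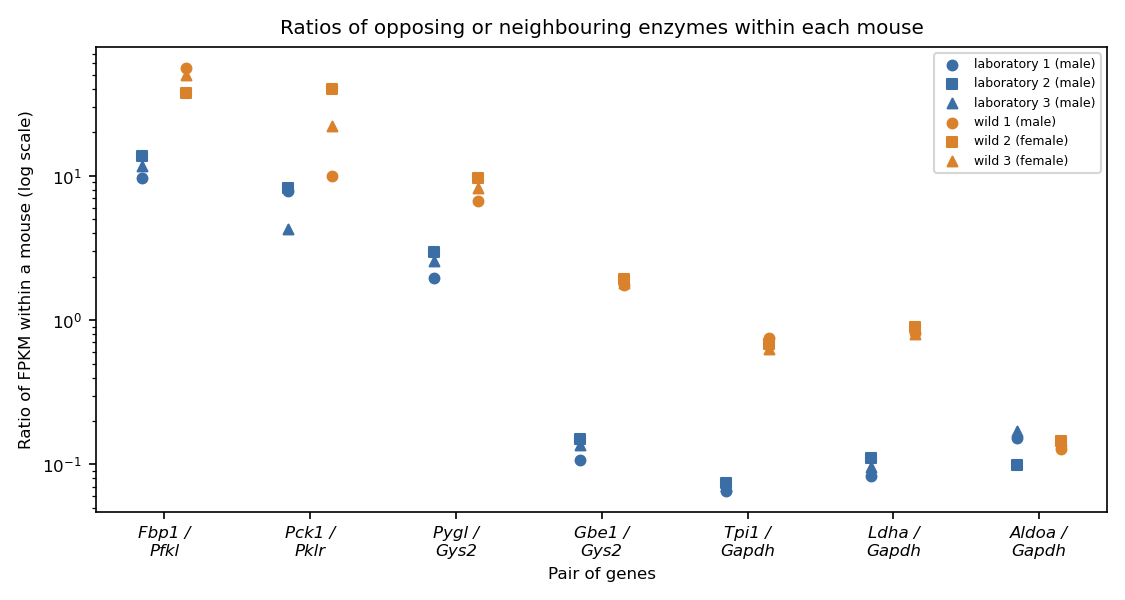
Ratio of the FPKM of 2 genes within the same mouse (y axis, log scale) for 7 pairs (x axis), with 1 symbol per mouse. The wild mice (orange) lie above the laboratory mice (blue) for 6 pairs and overlap them for Aldoa to Gapdh.

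Some members have near-identical copies elsewhere in the genome, so that reads may be divided among several entries. A blastn search of the members' transcripts (at least 90% identity over at least 500 bases) found such copies for 10 of the 38 members, and the values of those with expressed copies are uncertain. Gapdh had 151 listed copies, and their summed FPKM of 1345, 1237 and 1020 across the laboratory group versus 1233, 1053 and 1069 across the wild group exceeded that of the gene itself in every mouse. Like Gapdh itself, the copies overlapped between the groups, and the gene together with its copies was 0.903 times as high in wild as in laboratory mice.

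For Pgk1, Pgam1 and Ldha the direction did not turn when the listed copies were added, while the single copy of Tpi1 had no listed value and could not be added. The 2 copies of Pgk1 summed to 15.7, 16.6 and 12.6 FPKM across the laboratory group versus 64.1, 59.0 and 49.4 across the wild group, and gene and copies together were 7.84 times as high in wild mice, against 12.6 times for the gene alone. The copies of Pgam1 summed to 13.7, 18.6 and 12.9 FPKM across the laboratory group versus 73.9, 51.6 and 35.4 across the wild group, 5.07 times with the gene included. The copies of Ldha summed to at most 2.54 FPKM in any mouse, and Fbp1, Gbe1, Pcx, Pygl and Pdk1 had no copy by this search.

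**Figure D5:**
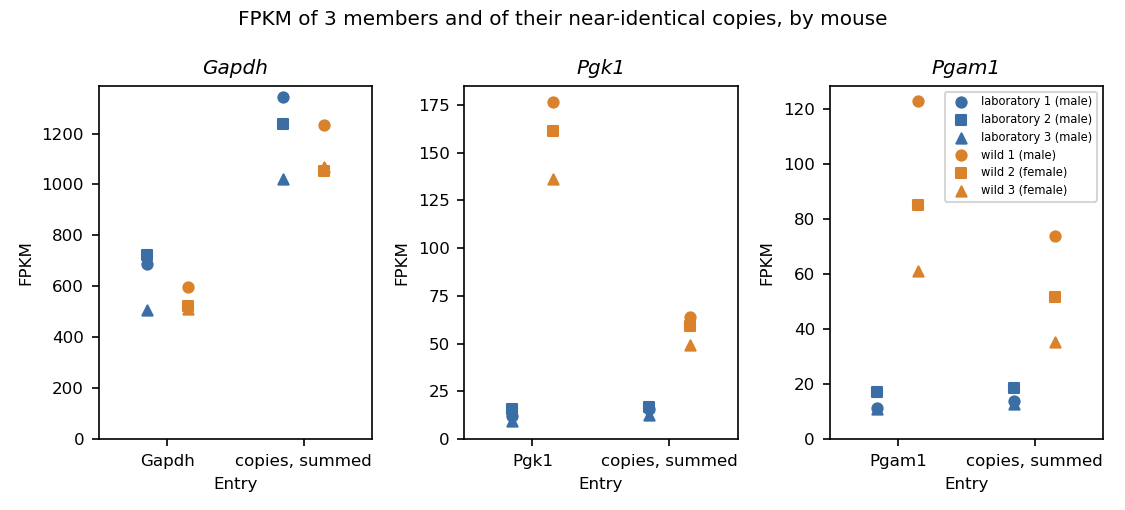
FPKM (y axis) of Gapdh, Pgk1 and Pgam1 and of the sum of their near-identical copies (x axis), with 1 symbol per mouse. For Gapdh the copies exceed the gene and the colours overlap, whereas for Pgk1 and Pgam1 the wild mice (orange) are above the laboratory mice (blue) for the gene and for the copies.

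The median SD of the members' levels within a group was similar in laboratory and wild mice. It was 0.30 among laboratory and 0.27 among wild mice on the log2(FPKM + 0.1) scale, and 18 of the 35 members had the larger SD among wild mice. The wild male was the lowest wild mouse for 16 members, the highest for 10 and between the females for 9. The widest differences of the wild male from the wild females were those of Hk3, at 0.0639 times their mean, and Pck1. In laboratory mice 2 of the 35 members had a mean FPKM above 100 (Gapdh and Pck1), and in wild mice 11 did.

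Among 69 tested genes of neighbouring pathways from a list of 76, 12 were called higher in wild mice and 2 lower, against 7.28% and 7.17% of all tested genes. The median difference was 0.17 in zFPKM, against -0.005 over all tested genes. Genes that supply carbon to gluconeogenesis from amino acids, lactate or glycerol accounted for 6 of the 12, of 10 tested, and the glycerol genes Gk and Gpd1 were not called. Got1, the cytosolic aspartate aminotransferase, had 8.45, 13.6 and 17.8 FPKM across the laboratory group versus 146, 298 and 167 across the wild group (zFPKM difference 1.09, SE 0.14, adjusted p = 1.8e-13). Gpt, alanine aminotransferase, had a difference of 0.69 (SE 0.12, adjusted p = 1.1e-06), and Tat, tyrosine aminotransferase, of 0.70 (SE 0.11, adjusted p = 7.1e-09). The other called genes of this supply list were Mdh1, Mdh2 and Slc25a13. For Got1, Gpt and Tat, as for Fbp1, every wild mouse was above every laboratory mouse in both units.

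Of 9 tested genes of the pyruvate dehydrogenase complex and pyruvate import, 3 were called higher (7.28% of all tested genes), namely the pyruvate carrier genes Mpc1 and Mpc2 and Dld, the dihydrolipoamide dehydrogenase subunit (for Dld zFPKM difference 0.69, SE 0.15, adjusted p = 0.00011). Of 15 other glycogen genes, 1 was called higher, Ppp1r3c, a subunit that brings protein phosphatase to glycogen (0.76, SE 0.18, adjusted p = 0.00043), a share near the 7.28% of all tested genes. Of 15 regulators, 2 were called lower (7.17% of all tested genes), the glucagon receptor gene Gcgr and, with the larger difference, Mlxipl, which encodes the glucose-sensing factor ChREBP (-0.75, SE 0.13, adjusted p = 3.7e-07). Its FPKM was 50.7, 84.8 and 241 across the laboratory group versus 28.7, 24.7 and 87.4 across the wild group, which overlap. The remaining calls were Ldhd and Aldh2, both higher, and none of 5 tested pentose phosphate genes was called (limma).

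The livers expressed the hepatocyte markers at high levels, with a summed FPKM of 7 of them between 30012 and 41471 in laboratory and between 20845 and 22033 in wild mice (Alb had failed estimates and Cps1 a repeated name, and both were left out). The sum does not describe each marker, since Tat and Hnf4a, which are among them, had a higher FPKM in every wild mouse than in any laboratory mouse. In bulk tissue, fewer cells of a type and less RNA per cell cannot be told apart. The 7 erythrocyte markers summed to 1340 to 5135 FPKM in laboratory and 724 to 1581 FPKM in wild mice, the 8 leukocyte markers to 27.1 to 45.6 and 7.02 to 39.4 (Ly6g at 0), and the 5 biliary markers to 29.7 to 64.6 and 12.2 to 27.6. The 6 endothelial markers summed to 18.1 to 29.1 and 15.7 to 54.2, and the 6 stellate cell markers to 14.7 to 24.2 and 11.2 to 23.98. The muscle markers summed to at most 1.37 FPKM in any mouse (Mb at 0), the adipocyte markers to at most 13.6 (Plin1 and Lep at 0) and the acinar pancreas markers to at most 17.2 (Prss2 and Amy2b at 0). The part of these cell types in the differences of the members was not tested.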

How the data were processed

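Livers of 3 laboratory and 3 wild mice were measured once each by stranded mRNA RNA-Seq, grouped by the labels. Per the study's methods, the authors used kalign on a masked genome and the Tuxedo pipeline for FPKM, and the submitters' processing notes name GRCm38.p6 and Picard. The deposited FPKM are scaled to length and library size. The deposited zFPKM, a score, was derived by the authors from each library's log2 FPKM, its mode and its SD. Since no counts were used here, the count-based test of the study's methods was replaced by limma. Deposited confidence bounds were not analysed.

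Of 47256 names found exactly once in each table, 24 with a marked failed estimate were left out (failures are not marked for laboratory mouse 1), leaving 47232. Genes exceeding a zFPKM of -3 in 3 or more of 6 mice (18619) were tested, lower values set to -3, with limma 3.58.1 in R 4.3.3 (lmFit, eBayes with trend, Benjamini-Hochberg, adjusted p under 0.05). Descriptions used Python 3.11.15, pandas 2.3.3, scipy 1.17.1 and blastn 2.17.0. Permutation tests were exact and two-sided. On simulated data for laboratory against wild, with 200 of 18619 genes shifted by 2 in zFPKM, 78% were recovered and 5.45% of 165 calls were false. That shift was larger than the difference of any member (at most 1.12), and the simulated noise was independent between genes. These rates therefore do not carry over to the calls of the members. Repeated names were left out of the test.

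FPKM were given by mouse for members that were called, whose groups did not overlap in both units, or that had the highest mean of their role, and for at most 6 called genes of the neighbouring list; some genes of that rule are not reported here. Members and lists were chosen with earlier results of these data known. Starts were raised by 1 to count from 1, and positions of 33 members then match RefSeq on GRCm38.p6. Absolute depth is unknown, so precision rests on the 3 mice per group. In the main fit the SE followed the mean level of a gene, at 0.098 for Pck1 and 0.099 for Gapdh. A gene's own spread between mice therefore had little part in its p-value. The alternatives were other scales, scalings, floors and filters, limma without trend, sex as a covariate, males alone, repeated names, 1 mouse of each group left out together, and each mouse left out in turn. As all laboratory mice were male, every difference with sex as a covariate is that of wild mouse 1 alone from the laboratory mice.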

Additional observations from a re-analysis of the deposited data

How the results depend on the processing

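All counts below are genes called at an adjusted p under 0.05 by limma. Members called higher numbered 9, and 21 on log2(FPKM + 1), 22 on log2(FPKM + 0.1) and with one mode and SD for all mice, 15 after quantile normalization and without laboratory mouse 3 and wild mouse 1, 3 without the trend, 1 with no filter on low values and 0 in males alone. Members called lower numbered 1, and 2 on both log2 scales, with one mode and SD and with each mouse's median set to 0, 6 after quantile normalization, 5 without laboratory mouse 3 and wild mouse 1, and 0 with no filter, without the trend and in males alone. Leaving out 1 mouse gave 6 to 10 called higher and 0 to 3 called lower (0 without laboratory mouse 1, laboratory mouse 2 or wild mouse 2, and 3 without laboratory mouse 3). Other genes of the pathway called higher numbered 12, and 42 and 44 on the log2 scales (FPKM + 1 and FPKM + 0.1), 43 with one mode and SD, 26 after quantile normalization and without laboratory mouse 3 and wild mouse 1, 3 with sex as a covariate, 1 without the trend, and 0 with no filter and in males alone. Those called lower numbered 2, and 7 after quantile normalization and 0 on both log2 scales, with one mode and SD, with no filter, without the trend and in males alone. Leaving out 1 mouse gave 8 to 12 higher and 1 to 4 lower (1 without wild mouse 1 and 4 without laboratory mouse 3).

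Over all tested genes, 1355 were called higher and 1335 lower. The count called higher was 6858 on log2(FPKM + 1), 7065 on log2(FPKM + 0.1), 7049 with one mode and SD, 3804 after quantile normalization, 2585 with medians set to 0, 8 with no filter, 352 without the trend, 249 with sex as a covariate and 2965 without laboratory mouse 3 and wild mouse 1. The count called lower was 3478 after quantile normalization, 2685 with medians set to 0, 15 with no filter, 443 without the trend and 2711 without laboratory mouse 3 and wild mouse 1. In males alone both counts were 0. Leaving out 1 mouse gave 565 to 1321 higher, the lowest without wild mouse 3, and 661 to 1643 lower, the lowest without laboratory mouse 1.

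No member changed sign while called in zFPKM. Members that were not called in zFPKM changed sign as follows. On log2(FPKM + 1), log2(FPKM + 0.1) and with one mode and SD, the differences were 0.27, 0.51 and 0.20 for Hk1, 0.48, 0.48 and 0.17 for Gpi1, 0.029, 0.036 and 0.013 for Pfkp, 0.42, 0.49 and 0.17 for Pkm, 0.23, 0.47 and 0.18 for Pfkfb3 and 0.13, 0.13 and 0.045 for Gys2, of which Gpi1 was then called higher (adjusted p = 0.047, 0.046 and 0.048). With sex as a covariate and in males alone they were -0.045 for Slc2a1, -0.070 for Slc2a2, -0.043 for Pfkfb1, -0.22 for Pck1, -0.084 for G6pc and -0.049 for Pdk2. Slc2a1 was at -0.0083 after quantile normalization, and without laboratory mouse 3 and wild mouse 1 it was at -0.0028, Hk1 at 0.0064 and Pkm at 0.022. With 1 mouse left out, the differences ranged from -0.062 to 0.15 for Slc2a1, from -0.30 to 0.26 for Hk1, from -0.93 to 0.069 for Hk3, from -0.42 to 0.015 for Pfkp, from -0.24 to 0.18 for Pkm, from -0.17 to 0.087 for Pfkfb3, from -0.29 to 0.60 for Fbp2, from -0.12 to 0.15 for G6pc and from -0.030 to 0.16 for Pdk2. At an unadjusted p under 0.05, the males alone gave 474 genes higher and 2646 lower, 6 members higher and 5 other genes of the pathway higher, the settings with no member called lower gave 2 to 5 and those with no other gene of the pathway called lower 0 to 5, and without a filter 18 other genes of the pathway were higher. The cause was not tested. No paired analysis was possible because the replicate numbers only follow the order of the samples. The unknown depth and 3 mice per group limit what can be called.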

Other observations

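Near-identical copies of Gapdh did not move alike. Gm12033 and Gm13394, whose transcripts aligned to that of Gapdh with 99.9% identity, had a mean FPKM of 243 each across the laboratory group, versus 111 for Gm12033 and 267 for Gm13394 across the wild group. By mouse, Gm12033 had 269, 237 and 222 FPKM across the laboratory group versus 127, 101 and 104 across the wild group, whereas Gm13394 had 269, 237 and 222 versus 296, 251 and 256. The pair held nearly equal values in every laboratory mouse and unequal values in every wild mouse. How reads were divided between them was not tested.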
